A study of Mus musculus with 21 samples.

Results

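Histones are the proteins that package DNA, and the mouse lymph node B cells described here were read for 71 histone genes among the 14493 genes of the deposited count table. The 71 were every row whose symbol starts with Hist1h, Hist2h, Hist3h or Hist4h (64 genes), together with H2afz, H2afx, H2afy, H3f3a, H3f3b, H1f0 and H1fx (7 genes). The 64 are called replication-dependent here, by their symbols, and the other 7 variants. By symbol, 58 of the 64 are core histone genes (17 H2A, 16 H2B, 12 H3 and 13 H4) and 6 are linker histone H1 genes; 1 of the H2A rows, Hist1h2al, is annotated as a processed pseudogene. Among the variants, H2afz, H2afx and H2afy encode H2A forms, H3f3a and H3f3b encode H3.3, and H1f0 and H1fx encode linker forms.

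The cells came from draining lymph nodes of 6 mice, 2 for each of days 10, 16 and 22 after subcutaneous immunisation at the base of the tail with 100 µg of the hapten-carrier conjugate NP-KLH in Sigma Adjuvant System. All 6 mice also received 5 mg of tamoxifen once by gavage, at least 6 days after immunisation, to switch on eYFP through Cre-ERT2; the gene that drives the Cre, the strain, the age and the sex are not given in the labels. Live IgD-negative eYFP+ cells were sorted into plasma cells (PC) and non-PC cells, which were captured in separate wells, and each mouse carried its own hashtag antibody. The deposited table holds 6619 cells, 436 in the PC well and 6183 in the other, each with a state named by the authors (PC, prePC, preMem, LZtoDZ, DZ for dark zone and LZ for light zone) and a phase call (G1, S or G2M). DZ, LZ and LZtoDZ cells together are called germinal centre cells (GC) here.

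A dividing cell must double its histones while it copies its DNA. Replication-dependent histone genes lie mostly in clusters, lack introns and are transcribed in S phase, and most of their mRNAs end in a stem-loop bound by SLBP in place of a poly(A) tail. Most variant genes lie alone in the genome and make polyadenylated mRNAs through the whole cycle. Their products replace canonical histones at particular places: H2A.Z near transcription starts, H2A.X at DNA breaks, macroH2A (H2afy) in silent chromatin and H3.3 in active genes. H1.0 (H1f0) is known to accumulate in cells that differentiate or stop dividing. Germinal centre B cells are among the fastest dividing cells of the body, and plasma cells leave the cycle as they mature.

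Raw counts of unique molecules (UMIs) were summed per mouse, state and phase, so that the mouse was the replicate. The 6 mice gave 573 to 1619 cells and 6260885 to 18599219 UMIs each, and single cells held 1335 to 70744 UMIs. Levels are given in CPM, which are UMIs scaled to a common library size over all sums together. Each molecule gives 1 UMI at its 5′ end, so these levels are not divided by gene length. They are compared within a gene or a fixed sum of genes only. Log2 differences of single genes come from fits scaled on the sums of each comparison alone, so they can differ from those of the CPM. The labels give polyA RNA as the molecule, so the UMIs of replication-dependent genes may come from a part of their transcripts only. The same holds for any variant with mRNAs that lack a poly(A) tail. State and phase had been called from the expression of these same cells by a method not given in the sources used here. Differences between phases in the 10 listed S markers and 10 G2M markers therefore describe the call. The genes used for the call are not given either. Regulators and histone genes may be among them, and the phase differences of such genes may partly describe the call. The PC cells carried the 8 listed plasma cell markers at a summed 7215 to 16137 CPM in S, against 1260.0 to 1444 CPM in GC cells in S. Their 8 germinal centre markers summed to 59.4 to 182 CPM, against 1122 to 1461 CPM. The 6 T cell markers summed to 0 to 16.9 CPM in PC in S, with 5 of 6 at 0, against 78.3 to 107 CPM in GC cells in S, and 6 cell barcodes occurred in both wells.

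All 71 genes had at least 1 UMI, but 10 replication-dependent genes had under 100 in all cells. The replication-dependent genes gave 241396 UMIs (161810 core, 79586 linker) and the 7 variants gave 646316. The 5 replication-dependent genes with the most UMIs made up 61.6% of the class. Of the 71 genes, 52 lie on chromosome 13, 10 on chromosome 3, 3 on chromosome 11, 2 on chromosome 6, and 1 each on chromosomes 1, 9 and 15. On GRCm38, H2afz lies at chr3:137864487-137866922 (plus strand), H2afx at chr9:44334694-44336077 (plus strand), H3f3a at chr1:180800832-180813943 (minus strand), Hist1h2ae at chr13:23570517-23571220 (minus strand) and Hist1h2ap at chr13:21833026-21833507 (minus strand). The row Hist2h2bb.1, a repeated symbol, could not be placed. Close copies limit single genes: of the 70 placed genes, 41 share the larger part of the 50-base words in the first 300 bases of their transcripts with another gene, 6 share all of them and 10 share none. How reads that match several genes were treated is not given in the sources used here. Hist1h2ap shares 88.05% of its words, Hist1h2ab 58.96%, Hist1h4d 44.22%, Hist1h2ae 29.88% and Hist1h1e 25.5%, whereas Hist1h1b, Hist1h1d, H1f0 and H1fx share 0%. Hist1h1e also overlaps Hist1h2be on the same strand, and H1fx overlaps Gm47286. Another gene lies on the opposite strand at 25 of the members, among them Hist1h2ae, Hist1h2ap, Hist1h2ab, H2afx, H2afy, H3f3a, H1f0 and H1fx.

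Promoter sequences from RefSeq (GRCm38.p6, 250 bases before to 50 after the annotated start) matched 62 members by gene ID or symbol, 56 replication-dependent genes and 6 variants, among 27025 genes in the table. The 5 shown were chosen because the results turn on these genes: Hist1h2ae and Hist1h1b are the core and linker replication-dependent genes with the most UMIs, Hist1h4d was lower in S than in G1, and H1f0 and H1fx are the linker variants that moved in opposite directions in PC. Capitals mark the motifs searched on both strands: the octamer ATTTGCAT, the CCAAT box that NF-Y binds, the core promoter word TATAAA that binds the TATA factor, and the H1 box, searched as AAACACA. The windows lie on chromosome 13 for Hist1h2ae (chr13:23571171-23571470, minus strand), Hist1h4d (chr13:23581318-23581617, plus strand) and Hist1h1b (chr13:21780576-21780875, minus strand), on chromosome 15 for H1f0 (chr15:79027962-79028261, plus strand) and on chromosome 6 for H1fx (chr6:87981433-87981732, minus strand), each written 5′ to 3′ on the gene's strand.
Hist1h2ae: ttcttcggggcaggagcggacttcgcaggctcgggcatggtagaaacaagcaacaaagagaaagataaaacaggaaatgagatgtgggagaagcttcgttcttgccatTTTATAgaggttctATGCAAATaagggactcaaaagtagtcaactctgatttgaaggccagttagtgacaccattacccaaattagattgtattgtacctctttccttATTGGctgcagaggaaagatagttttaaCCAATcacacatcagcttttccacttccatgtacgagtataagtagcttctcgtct
Hist1h4d: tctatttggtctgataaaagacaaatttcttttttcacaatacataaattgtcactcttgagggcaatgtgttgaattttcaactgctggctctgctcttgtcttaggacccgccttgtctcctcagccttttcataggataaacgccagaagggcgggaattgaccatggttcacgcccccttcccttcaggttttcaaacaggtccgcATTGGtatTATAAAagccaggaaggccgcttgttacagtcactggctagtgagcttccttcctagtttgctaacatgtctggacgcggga
Hist1h1b: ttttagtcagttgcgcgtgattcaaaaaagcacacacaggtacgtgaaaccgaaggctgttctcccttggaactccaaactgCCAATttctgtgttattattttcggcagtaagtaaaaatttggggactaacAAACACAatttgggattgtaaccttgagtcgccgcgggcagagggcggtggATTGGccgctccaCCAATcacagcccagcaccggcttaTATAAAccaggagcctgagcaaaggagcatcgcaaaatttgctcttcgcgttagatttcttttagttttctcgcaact
H1f0: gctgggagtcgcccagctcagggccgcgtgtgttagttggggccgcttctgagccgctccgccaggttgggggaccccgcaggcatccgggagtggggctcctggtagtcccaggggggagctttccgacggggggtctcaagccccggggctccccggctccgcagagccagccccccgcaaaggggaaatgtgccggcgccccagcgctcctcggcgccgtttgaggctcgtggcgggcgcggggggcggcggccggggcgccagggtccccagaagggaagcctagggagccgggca
H1fx: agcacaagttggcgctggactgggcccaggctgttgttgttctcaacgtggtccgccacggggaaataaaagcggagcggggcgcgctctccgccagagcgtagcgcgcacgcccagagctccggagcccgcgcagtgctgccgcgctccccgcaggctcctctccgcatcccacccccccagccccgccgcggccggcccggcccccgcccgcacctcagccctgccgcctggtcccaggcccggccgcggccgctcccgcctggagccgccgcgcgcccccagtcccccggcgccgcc

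The windows of the 3 replication-dependent genes held at least 1 CCAAT box and at least 1 TATA word each, and those of H1f0 and H1fx held none of the 4 motifs. The window of Hist1h2ae held the octamer, and that of Hist1h1b the H1 box. In the Hist1h2ae window the only TATA word lies at −142 from the start and the octamer at −128. That window overlaps Hist1h2bg, which starts at chr13:23571396 on the plus strand and is transcribed in the opposite direction. Which of the 2 genes these matches belong to was not tested. CCAAT was present in 47 of 56 replication-dependent windows (83.93%) and in 3 of 6 variant windows, against 41.06% of all windows of the table. Within the class it was found in all 6 H1, 15 H2A, 13 H2B and 10 H3 windows but in 3 of 12 H4 windows. TATAAA was present in 33 of 56 (58.93%), against 15.67% of all. The octamer, which is bound by the OCT factors, was present in 12 of 56 (21.43%), 6 of 15 H2A and 6 of 13 H2B windows and 0 of the H1, H3 and H4 windows, against 1.97% of all. The H1 box was in 5 of 6 H1 windows, against 8.22% of all. Of the 6 variant windows, 1 held TATAAA, 1 the octamer and 1 the H1 box. The E2F word TTTGGCGC was in 0 of 56, against 0.58% of all. A match is a string of letters in these windows and was not tested as a site; neighbouring genes transcribed in opposite directions share parts of their windows.

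The first comparison set GC cells called S against GC cells called G1, which asks how each histone gene stands while DNA is copied. Most replication-dependent genes tested were higher in S: of 64, 46 passed the filter on low counts, 32 were higher and 1 was lower (median log2 difference 0.66, against −0.03 over all 9052 genes tested). Of all genes tested, 27.6% were called higher and 26% lower at an adjusted p of 0.05 (edgeR's quasi-likelihood test with mouse as a block, Benjamini-Hochberg over all genes). All 5 tested H1 genes rose, as did 7 of 11 H2A, 10 of 13 H2B, 5 of 8 H3 and 5 of 9 H4 genes. Of the 7 variants, 5 rose and 2 fell.

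Summed over the class, replication-dependent genes stood at 3140.0, 3534 and 3696 CPM (lowest, median and highest of 6 mice) in S, against 1881, 2063 and 2291 CPM in G1. The 2 phases did not overlap, and the log2 difference within mice was 0.75 ± 0.09 (SD, n = 6 mice). The sum of the 7 variants was 9246 ± 202 CPM in S, against 7189 ± 139 CPM in G1. Each UMI of a variant was thus matched by 0.378 ± 0.0166 replication-dependent UMIs in S, against 0.289 ± 0.0223 in G1, a ratio that was higher in S in 6 of 6 mice. Families differed in size of change: the within-mouse log2 difference was 1.26 ± 0.11 for summed H2A genes, 0.70 ± 0.12 for H1, 0.48 ± 0.17 for H2B, 0.22 ± 0.06 for H4 and 0.15 ± 0.14 for H3. Such sums follow the genes with the most UMIs, Hist1h4d among H4 genes. Medians over single tested genes ranked otherwise: 0.99 for H4, 0.69 for H1, 0.65 for H2A, 0.49 for H2B and 0.44 for H3. The linker to core ratio of the class was 0.532 ± 0.0284 in S, against 0.563 ± 0.0161 in G1, lower in S in 6 of 6 mice. These sums carry no test, because the genes in them were chosen as a class.

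**Figure D1:**
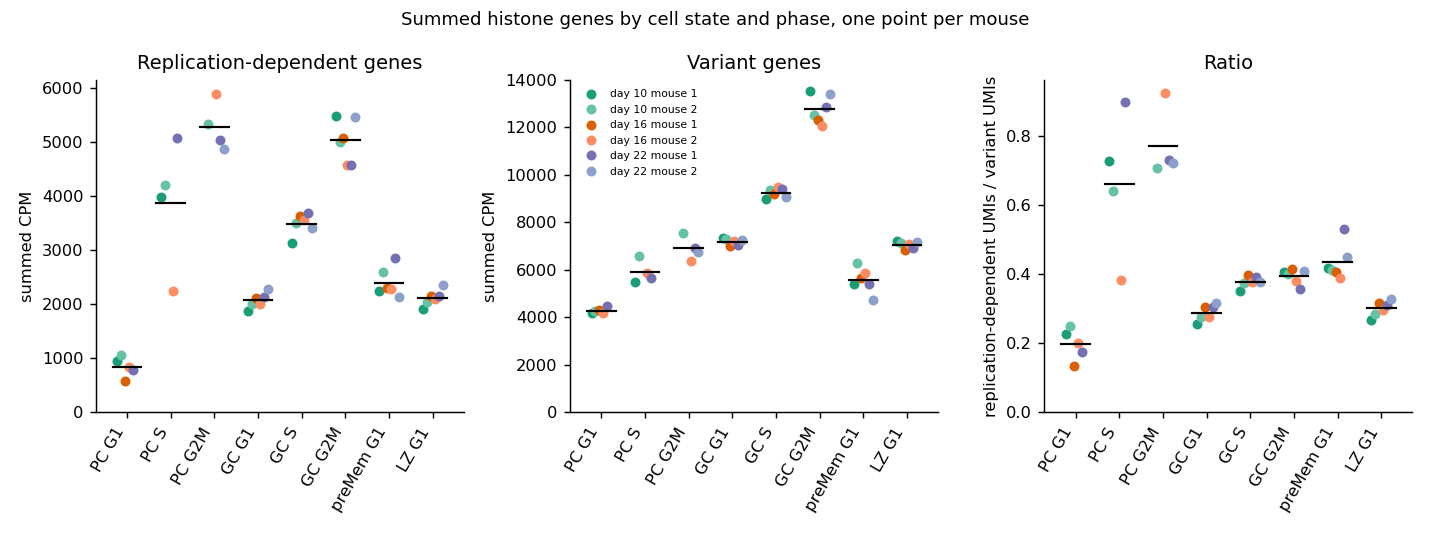
Summed CPM of the 64 replication-dependent genes (left), of the 7 variants (middle) and the ratio of their UMIs (right) for PC, germinal centre (GC: DZ, LZ and LZtoDZ together), preMem and LZ cells by phase; each point is a mouse and each bar the mean. PC in S reach germinal centre levels of replication-dependent genes in 3 of 4 mice while all 4 sit below them for variants.

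Among core genes, Hist1h2ap (H2A) showed the greatest difference of all members tested. It had 369.8, 401 and 441 CPM (lowest, median, highest) in S, against 49.0, 56.4 and 60.5 CPM in G1, with no overlap and a log2 difference of 2.86 ± 0.06 (SE; higher in 6 of 6 mice). Hist1h2ae, also an H2A gene, had 558, 615 and 683 CPM in S, against 223, 257 and 273 CPM in G1, a log2 difference of 1.29 ± 0.05. Hist1h3g (H3) and Hist1h4i (H4) followed Hist1h2ap with log2 differences of 2.25 ± 0.17 and 1.88 ± 0.11. The abundant H2A gene Hist1h2ab did not pass, with 123, 129 and 150.1 CPM in S, against 117, 123 and 129 CPM in G1, which overlap (adjusted p = 0.0695, edgeR). Hist1h4d (H4) was the single replication-dependent gene that fell, by 0.15 on the log2 scale: it had 176, 202 and 219.5 CPM in S, against 181, 226 and 241 CPM in G1. It was lower in S in 6 of 6 mice, although the 2 ranges overlap. The call was lost within LZ cells alone (−0.11, adjusted p = 0.0718), within DZ cells alone (−0.04, 0.659), with thinned cells (−0.11, 0.12) and without the replicate block (−0.15, 0.0774).

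The 5 linker genes tested had log2 differences of 0.54 to 1.25 (median 0.69), all below that of Hist1h2ap. The median over the 41 replication-dependent core genes tested was 0.61, with 27 higher and 1 lower. Hist1h1b (H1.5) had 610.4, 651 and 708 CPM in S, against 367, 407 and 459 CPM in G1 (log2 difference 0.69 ± 0.04). Hist1h1e (H1.4) had 255, 299 and 345 CPM in S, against 185, 204 and 247 CPM in G1 (log2 difference 0.54 ± 0.05), and Hist1h1d (H1.3) had 88.1, 96.9 and 114 CPM in S, against 30.0, 42.2 and 48.2 CPM in G1 (log2 difference 1.25 ± 0.07). All 3 were separated between the phases and higher in S in 6 of 6 mice.

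Variants differed in the size and direction of their change. H2afz rose most, with 2364, 2703 and 2949 CPM in S, against 813, 919.7 and 1011 CPM in G1 (log2 difference 1.57 ± 0.05). H2afx followed, with 524, 583 and 647 CPM in S, against 267, 305 and 331 CPM in G1 (log2 difference 0.95 ± 0.03), then H2afy, with 127, 140.2 and 154 CPM in S, against 72.9, 84.1 and 105 CPM in G1 (log2 difference 0.73 ± 0.05). The phases did not overlap for any of these 3 H2A variants. The H3.3 genes stayed near their G1 level: H3f3b rose by 0.10 on the log2 scale (1775 ± 72.4 CPM in S, against 1659 ± 93.6 CPM in G1), and H3f3a differed by −0.05 (adjusted p = 0.041, edgeR; 3972 ± 130.0 CPM in S, against 4121 ± 181 CPM in G1). The sign for H3f3a turned within LZ cells alone (0.04) and within DZ cells alone (0.02), and neither H3.3 gene passed with thinned cells (adjusted p = 0.368 for H3f3a and 0.837 for H3f3b).

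The linker variants parted: H1fx had 29.2, 42.7 and 59.4 CPM in S, against 24.5, 34.9 and 44.1 CPM in G1 (log2 difference 0.39 ± 0.08, higher in 6 of 6 mice, overlapping ranges). H1f0 had 44.1, 46.2 and 62.0 CPM in S, against 51.4, 76.3 and 87.7 CPM in G1, and fell by 0.60 on the log2 scale, in 6 of 6 mice. Within LZ cells alone 29 members were higher and 1 lower of 46 tested, and within DZ cells alone 27 and 1 of 42.

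Genes that make, process or carry histones were mostly higher in S as well. Of 36 tested members of a list of 37 regulators and chaperones, 28 rose and 2 fell in S. Whether any of them entered the phase call is not known, so these values are no independent account of the phases. Slbp, which binds the histone mRNA stem-loop, rose by 1.56 on the log2 scale, the H3-H4 chaperone gene Asf1b by 2.38, Chaf1a of the CAF-1 assembly complex by 2.41 and Hat1, which acetylates new H4, by 1.69. All 10 S markers rose, at a summed 2631 to 2831 CPM in S, against 542 to 605 CPM in G1, and all 10 G2M markers rose as well (1078 to 1361 CPM in S, against 487 to 535 CPM in G1). How far G2 cells among those called S bear on the histone values was not tested.

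**Figure D2:**
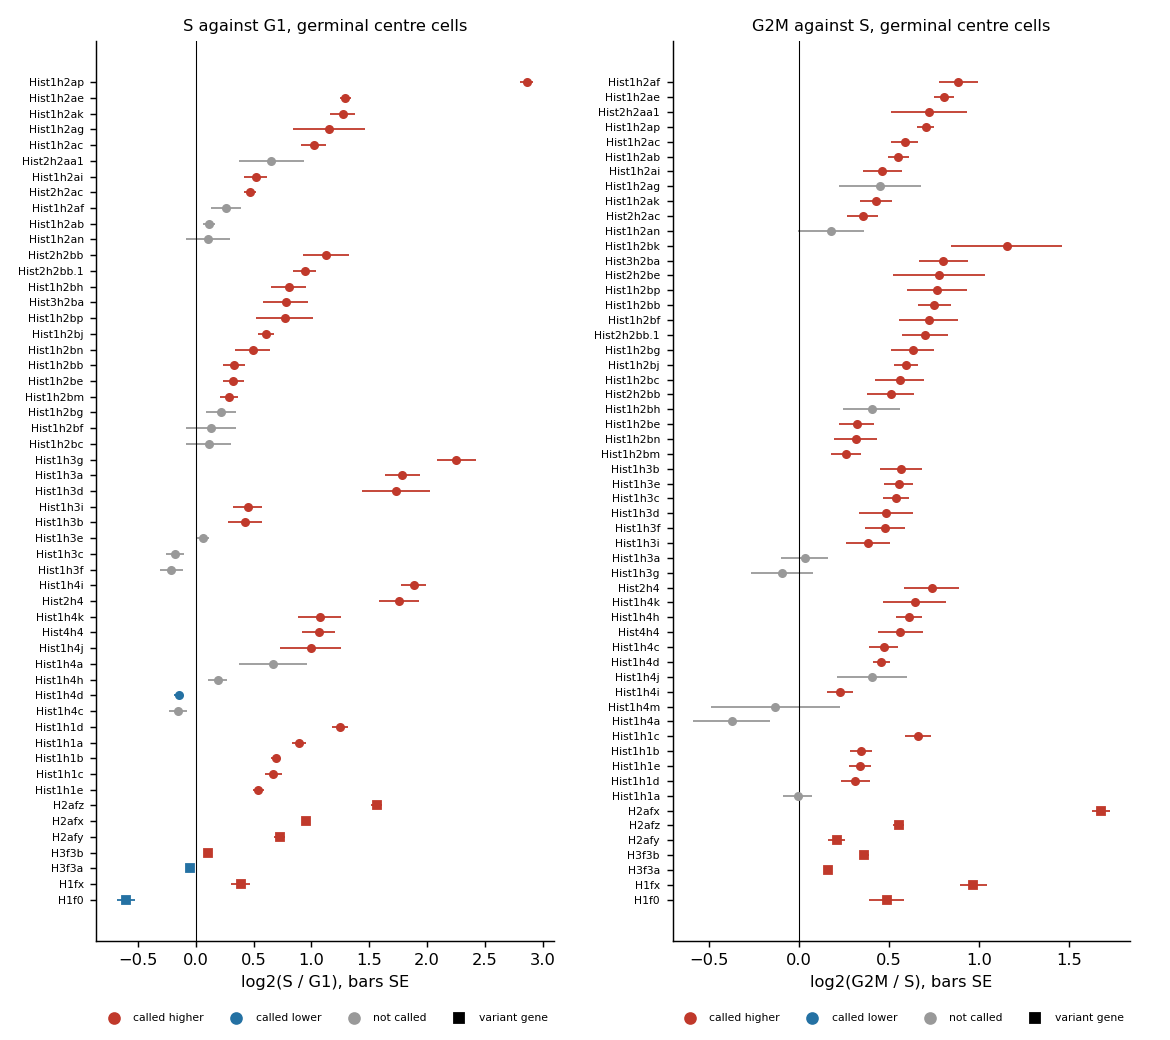
Log2 differences in germinal centre cells of 6 mice for members, S against G1 and G2M against S, with standard errors derived from the fit. Points right of 0 are higher in the phase named first. Most replication-dependent genes lie right of 0 in both steps, and H1f0 lies left of 0 in S against G1 and right of 0 in G2M against S.

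Cells called G2M were then set against those called S, to see which members drop after S. None fell: of 56 tested, 47 were higher and 0 lower by edgeR, against 18.8% higher and 21% lower of all 8906 genes tested (48 members had an unadjusted p under 0.05, with no call in the lower direction). Replication-dependent genes accounted for 40 of these (of 49 tested, median log2 difference 0.51, against −0.0034 over all genes) and all 7 variants were higher. This comparison and the one before share the S sums. The zones were mixed differently: 873 of 1358 cells in G2M were DZ and 428 LZ, against 628 DZ and 1036 LZ of 1822 cells in S. This step was not fitted within DZ or LZ cells alone, and the part of the zone mix in its values, among them those of H1fx, was not tested. The class stood at 4586, 5040.0 and 5484 CPM (lowest, median, highest) in G2M, against 3140.0, 3534 and 3696 CPM in S, with no overlap. Variants summed to 12777 ± 601 CPM in G2M, against 9246 ± 202 CPM in S, so the ratio of the classes was 0.394 ± 0.0214 in G2M, against 0.378 ± 0.0166 in S, which overlap. The linker to core ratio was lower in G2M in 6 of 6 mice, at 0.438 ± 0.0384, against 0.532 ± 0.0284 in S.

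H2afx, whose product marks DNA breaks when phosphorylated, rose most: it had 1639.6, 1815 and 2131 CPM in G2M, against 524, 583 and 647 CPM in S (log2 difference 1.68 ± 0.05). H1fx had 60.9, 87.3 and 108 CPM in G2M, against 29.2, 42.7 and 59.4 CPM in S (log2 difference 0.97 ± 0.07), without overlap. H2afz rose by 0.55 and H1f0 by 0.49 on the log2 scale; H1f0 had 49.4, 71.0 and 80.4 CPM in G2M, against 44.1, 46.2 and 62.0 CPM in S, ranges that overlap. Among replication-dependent genes Hist1h2bk (H2B) rose by 1.15, Hist1h2af (H2A) by 0.89, Hist1h2ae by 0.81 and Hist1h2ap by 0.70. Hist1h4d, lower in S than in G1, was 0.46 higher on the log2 scale in G2M than in S.

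Of 36 regulators tested, 6 rose and 17 fell. The same limit of the phase call holds for these genes and for Cenpa. Slbp fell by 1.04 on the log2 scale, Chaf1b of CAF-1 by 1.42, Chaf1a by 0.96 and Casp8ap2, a factor of the histone locus body, by 0.95, while the H2A.Z chaperone gene Anp32e rose by 0.68. Cenpa, the centromeric H3 variant outside the 71, rose by 2.05.

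DZ and LZ cells of the germinal centre differ in division and selection, and were compared within S. Few members differed: 3 were higher in DZ and 1 lower of 46 tested, against 8.16% higher and 7.39% lower of all 7487 genes tested. The class summed to 3603 ± 492 CPM in DZ, against 3522 ± 328 CPM in LZ, higher in DZ in 3 of 6 mice, and its ratio to the variants was 0.373 ± 0.0414 in DZ, against 0.384 ± 0.0211 in LZ. H1fx differed most, with 38.6, 65.1 and 79.6 CPM (lowest, median, highest) in DZ, against 26.7, 36.9 and 46.6 CPM in LZ (log2 difference 0.71 ± 0.11, adjusted p = 1.90e-04, higher in 6 of 6 mice although the ranges overlap). Hist1h4i rose by 0.37 and H2afz by 0.21 on the log2 scale, and Hist2h2bb.1 fell by 0.45. Hist1h4i and Hist2h2bb.1 lost their calls with DESeq2's test (adjusted p = 0.104 and 0.258), with thinned cells (0.613 and 0.456) and without the replicate block (0.0679 and 0.109), and Hist2h2bb.1 also without any one mouse other than day 10 mouse 2 (0.0699 to 0.116). Without the replicate block for mouse, 2 of the 46 members passed in place of 4, and without immunoglobulin genes 8 did. Without the filter on low counts 8 of 71 members tested passed.

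Outside S, the class was lower in DZ than in LZ in 6 of 6 mice in G1 (1996 ± 157 CPM in DZ, against 2121 ± 147 CPM in LZ) and in 5 of 6 mice in G2M (4852 ± 428 CPM in DZ, against 5764 ± 764 CPM in LZ). These ranges overlap in both phases. LZtoDZ cells called S had a summed 2836 ± 712 CPM over 5 mice, against 3577 ± 335 CPM in LZ and 3758 ± 349 CPM in DZ of the same mice. They were lower than DZ in 5 of 5 mice and lower than LZ in 4 of 5, and their median depth was 22505 UMIs a cell, against 9947 in LZ and 11644 in DZ.

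PC in S were set against GC cells in S, which asks whether antibody-secreting cells that still copy DNA carry the histone mRNAs of their germinal centre relatives. The summed replication-dependent genes overlapped between them and the summed variants did not. Of 46 members tested, 7 were higher and 5 lower in PC, against 15.6% higher and 15.9% lower of all 7277 genes tested; among 39 replication-dependent genes 6 were higher and 2 lower, with a median log2 difference of 0.10 against −0.11 over all genes. That median was −0.26 with thinned cells (−0.37 over all genes), −0.04 without the filter on low counts, −0.01 without day 22 mouse 1 and 0.54 against GC cells of the PC well alone, where fewer genes were tested. The comparison rests on 4 mice with 5, 32, 11 and 12 PC in S (day 10 mouse 1, day 10 mouse 2, day 16 mouse 2 and day 22 mouse 1). Without day 10 mouse 2, which gave the most PC, 7 members passed in place of 12.

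The class summed to 3995, 4211, 2239.6 and 5078 CPM in PC of these 4 mice, in that order, against 3476 ± 238 CPM in GC cells (SD, n = 4 mice). Day 16 mouse 2 was the low one and the other 3 lay above their own GC cells, so that the mean log2 difference of 0.10 ± 0.52 became 0.36 without that mouse and −0.02 without day 22 mouse 1. Variants summed to 5497, 6585, 5849 and 5655 CPM in PC, against 9308 ± 223 CPM in GC cells, with no overlap, a log2 difference of −0.66 ± 0.11 that became −1.05 when every cell was thinned to 4727 UMIs. The ratio of the classes was 0.727, 0.639, 0.383 and 0.898 in PC, above that of the GC cells in 4 of 4 mice (0.373 ± 0.0176), by 0.02 on the log2 scale in day 16 mouse 2. In G2M the ratio was 0.77 ± 0.102 in PC of 4 mice, against 0.386 ± 0.0227 in GC cells.

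Linker variants moved in opposite directions. H1f0 had 271, 251, 54.0 and 204 CPM in PC, against 44.1 to 62.0 CPM (median 46.2) in GC cells of 6 mice. Day 16 mouse 2 lay within the GC range and the other 3 mice well above it (log2 difference 2.11 ± 0.36, adjusted p = 0.00155). H1fx was close to absent in PC, with 0, 0, 3.37 and 0 CPM, against 29.2 to 59.4 CPM (median 42.7) in GC cells. That is 1 UMI of 1496696 in PC, against 705 of 16276664 in GC cells, a ratio of 0.0154 with a counting interval (95%, exact) of 0.00039 to 0.0862, and the groups did not overlap. Their parts together gave 271, 251, 57.3 and 204 CPM of linker variants in PC, against 93.2 ± 14.1 CPM in GC cells of 6 mice.

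Among core variants, H2afx had 136, 158, 189 and 222 CPM in PC, against 524 to 647 CPM (median 583) in GC cells, and H3f3a had 1739, 1870.1, 1579 and 1144 CPM in PC, against 3816 to 4142 CPM (median 3967) in GC cells. Both lay wholly below the GC range and fell by 1.45 and 1.13 on the log2 scale. H3f3b (1481 ± 244 CPM in PC, against 1775 ± 72.4 CPM in GC cells), H2afz (2345 ± 279 CPM in PC, against 2683 ± 195 CPM in GC cells) and H2afy (116 ± 23.3 CPM in PC, against 140.5 ± 10.6 CPM in GC cells) did not pass the test. Of the variants outside the 71, H2afv, a second H2A.Z gene, fell by 1.47 and H2afj rose by 1.00.

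Of replication-dependent genes, Hist1h2ap had 942, 734, 374 and 688 CPM in PC, against 369.8 to 441 CPM (median 401) in GC cells, higher in 3 of 4 mice (log2 difference 0.95 ± 0.24, adjusted p = 0.0113). Hist1h2ap did not pass without day 10 mouse 1 (0.70, adjusted p = 0.0637) or without day 22 mouse 1 (0.88, 0.0621). Hist1h4i (H4) had 279.9, 179, 108 and 229 CPM in PC, against 50.1 to 76.8 CPM (median 68.0) in GC cells, above the GC range in all 4 mice. Hist1h2bc (H2B) rose by 1.81 on the log2 scale, the H4 genes Hist2h4 and Hist1h4k by 1.36 and 1.14, and Hist1h1c (H1.2) by 1.14. The Hist1h2bc call was lost with DESeq2's test (adjusted p = 0.0621), without day 10 mouse 1 (0.0708), without day 10 mouse 2 (0.0567) and without day 22 mouse 1 (log2 difference 1.06, 0.261). Hist1h2bc, Hist1h4k and Hist1h4i share 83.67%, 72.91% and 67.73% of their words with other genes, and Hist1h2af and Hist1h3i, which were lower, share 98.01% and 94.82%. Hist1h2af had 0 UMIs in PC, against 169 in GC cells, at least 5.18-fold lower with a floor of 3 UMIs over the group, and Hist1h3i had 2, against 216 (ratio 0.101, interval 0.0121 to 0.368); without day 10 mouse 2 neither passed (adjusted p = 0.0686 and 0.0762). The linker genes Hist1h1b (475, 635, 371 and 822 CPM in PC, against 610.4 to 708 CPM (median 651) in GC cells) and Hist1h1e (246, 359, 196 and 378 CPM in PC, against 255 to 345 CPM (median 299) in GC cells) did not pass, nor did Hist1h2ae (916, 948, 395 and 1136 CPM in PC, against 558 to 683 CPM (median 615) in GC cells).

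State and well went together: 61 of 65 PC in S came from the PC well, and 68 of 1822 GC cells in S did. Against the GC cells of the PC well alone, 4 of 19 members tested passed, and H1fx was not among the 19. H1f0 (log2 difference 2.51, adjusted p = 0.00204), Hist1h4i (1.13, 0.00583) and H3f3a (−0.71, 0.0166) passed there too, whereas Hist1h2ap (0.57, 0.119) and H2afx (−0.32, 0.391) did not pass. The PC in S had a median of 23672 UMIs a cell, against 10944 in GC cells in S, and immunoglobulin genes took 8.61% to 14.5% of their UMIs. Among 10 S markers 2 were higher and 4 lower in PC, at a summed 1832 to 2420.4 CPM in PC, against 2631 to 2831 CPM in GC cells, and 3 of 10 G2M markers were higher, at 993 to 1211 CPM, against 1078 to 1361 CPM. Their part in the histone differences was not tested. Of 35 regulators tested, 1 rose and 9 fell in PC: Supt16 of the FACT complex fell by 0.85 on the log2 scale, Hat1 by 0.88, Asf1b by 0.76 and Slbp by 0.55.

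**Figure D3:**
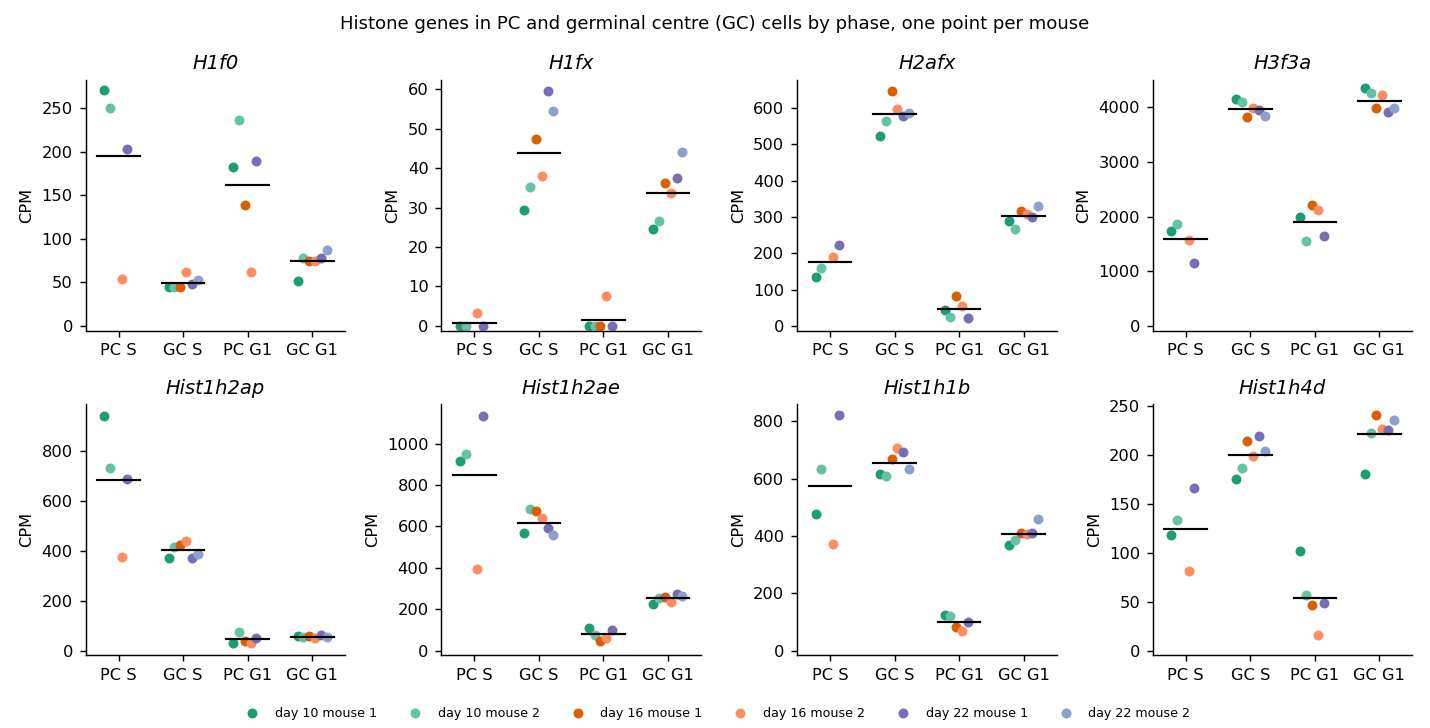
CPM of 8 members in PC and germinal centre cells (GC) called S and G1, one point per mouse (4 mice for PC S, 5 for PC G1, 6 for GC), with the mean as a bar. H1fx is at or near 0 in PC, H3f3a and H2afx lie below the germinal centre range in PC, and Hist1h2ae, Hist1h1b and Hist1h4d are low in PC in G1.

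In G1, replication-dependent genes were lower in PC than in GC cells, and so were H1fx, H2afx and H3f3a. Of 37 members tested, 4 were higher and 21 lower in PC, against 17.8% higher and 24.2% lower of all 7124 genes tested. Of 30 replication-dependent genes, 3 were higher and 18 lower, with a median log2 difference of −1.49, against −0.24 over all genes. The class summed to 948, 1069, 574, 832 and 785 CPM in PC of 5 mice, against 2029 ± 105 CPM in their GC cells, without overlap. Variants summed to 4284 ± 118 CPM in PC, against 7172 ± 148 CPM in GC cells. The 5 mice gave 12, 69, 11, 12 and 16 PC in G1, and without day 10 mouse 2, which gave 69, 12 members passed in place of 25.

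Hist1h2ab had 21.9, 29.9, 27.8, 7.7 and 7.01 CPM in PC, against 117 to 129 CPM (median 123) in GC cells (log2 difference −2.42 ± 0.26). Hist1h4d had 102, 56.7, 46.3, 15.4 and 49.1 CPM in PC, against 181 to 241 CPM (median 226) in GC cells (−1.93 ± 0.27), and Hist1h1b had 124, 119.7, 83.4, 69.3 and 98.2 CPM in PC, against 367 to 459 CPM (median 407) in GC cells (−1.88 ± 0.16). All 3 lay below the GC range in every mouse, as did Hist1h2ae (109, 74.0, 46.3, 61.6 and 98.2 CPM in PC, against 223 to 273 CPM (median 257) in GC cells). Hist1h2ap, low in both groups, had 29.2, 75.6, 37.1, 30.8 and 49.1 CPM in PC, against 49.0 to 60.5 CPM (median 56.4) in GC cells, and did not pass. H2afx fell by 2.79 on the log2 scale, with 43.7, 25.2, 83.4, 53.9 and 21.03 CPM in PC, against 267 to 331 CPM (median 305) in GC cells, and H3f3a by 1.02. H1fx had 1 UMI in PC, against 504 in GC cells (ratio 0.0156, interval 0.00039 to 0.0871), and Hist1h2af 1, against 133 (ratio 0.059, interval 0.0015 to 0.334).

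Higher in PC were Hist1h4i (1.86 on the log2 scale), Hist3h2ba (1.85; H2B), Hist1h1c (0.71) and H1f0 (1.30). H1f0 had 182, 236, 139, 61.6 and 189 CPM in PC, against 51.4 to 87.7 CPM (median 76.3) in GC cells, with day 16 mouse 2 inside the GC range and the other 4 above it. Of the 122 PC in G1, 119 came from the PC well, as did 47 of 2628 GC cells in G1. Against the GC cells of that well, 2 of 6 members tested passed, H3f3a (log2 difference −0.89, adjusted p = 0.0299) and H3f3b (−0.55, 0.0396), of which H3f3b was not called against all GC cells. H1fx, H1f0, Hist1h4i, Hist3h2ba and Hist1h1c were not among the 6. H2afx (−1.65, 0.0706) and the 2 replication-dependent genes tested there, Hist1h1b (−0.89, 0.0564) and Hist1h1e (0.75, 0.192), did not pass, and the median of these 2 was −0.07, against 0.05 over all genes. Immunoglobulin genes took 27% to 35.5% of the UMIs of these PC, and S markers summed to 120.5 to 444 CPM in PC, against 542 to 605 CPM in GC cells, with 1 of 10 higher and 4 lower. G2M markers summed to 120.5 to 394 CPM, against 487 to 535 CPM, with 4 of 10 lower. Their part in the histone differences was not tested. Of 32 regulators tested 1 rose and 14 fell, Nap1l1, an H2A-H2B chaperone gene, by 1.93 and Slbp by 1.58.

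Within PC, cells called S were set against cells called G1 in the 4 mice that gave both, nearly all from the PC well. Of 17 members that passed the filter, 13 were higher in S and 0 lower by edgeR, against 17% higher and 15.9% lower of all 2341 genes tested (13 had an unadjusted p under 0.05). The class summed to 3881 ± 1190.1 CPM in S, against 908 ± 127 CPM in G1 (SD, n = 4 mice), and its log2 difference of 2.04 ± 0.52 compares with 0.46 ± 0.13 for variants. The ratio of the classes was 0.662 ± 0.215 in S, against 0.213 ± 0.0322 in G1. Hist1h2ap (3.70 ± 0.24 on the log2 scale) and Hist1h2ae (3.40 ± 0.17) rose most, followed by Hist1h1b (2.48 ± 0.16), Hist1h1d (2.43 ± 0.47) and Hist1h2ab (2.43 ± 0.30). H2afx rose by 2.40, H2afz by 1.38 and H2afy by 0.87. The H2afy call was lost with DESeq2's test (adjusted p = 0.0693), with cells of their own well only (0.109) and without day 10 mouse 1, day 10 mouse 2 or day 22 mouse 1 (0.0528 to 0.111). With 53 of the 64 replication-dependent genes untested, the members counted here are the abundant ones, and without day 10 mouse 2 or without day 22 mouse 1 the count was 8. It was 4 of 6 members tested with cells thinned to 4727 UMIs and 23 of 65 without the filter on low counts. Of all genes tested, 184 of 651 passed with thinned cells and 1193 of 11360 without the filter.

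The difference between the S against G1 steps of PC and of GC cells was tested itself. It was positive for 7 of 45 members and negative for 0 by edgeR, against 1.42% and 1.03% of all 7979 genes tested (19 members had an unadjusted p under 0.05). Hist1h2ab gave the greatest value, 2.33 ± 0.33 (adjusted p = 0.00292), then Hist1h2ae (2.16 ± 0.34), Hist1h1b (1.90 ± 0.29), Hist1h3c (H3; 1.72 ± 0.39), H2afx (1.65 ± 0.28), Hist1h4d (1.48 ± 0.35) and Hist1h3e (H3; 1.39 ± 0.32). For Hist1h4d the step was 1.26 in PC, against −0.15 in GC cells, and for Hist1h2ab 2.43, against 0.11, which was not called. In S, Hist1h2ab had 110.3, 132, 64.1 and 96.2 CPM in PC, against 123 to 150.1 CPM (median 129) in GC cells, which overlap. Hist1h4d had 119, 133, 80.9 and 167 CPM in PC, against 176 to 219.5 CPM (median 202) in GC cells, below the GC range in all 4 mice although it did not pass the test between the states in S (adjusted p = 0.0824, edgeR); against GC cells of the PC well alone its log2 difference was 0.48 (0.311). Without day 10 mouse 2 the count was 3 and without day 22 mouse 1 it was 1, as it was with thinned cells. Of 10 S markers 0 passed the test between the steps by edgeR (5 had an unadjusted p under 0.05), and of 10 G2M markers Ube2c and Top2a did (2.14 and 1.08); their part was not tested.

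**Figure D4:**
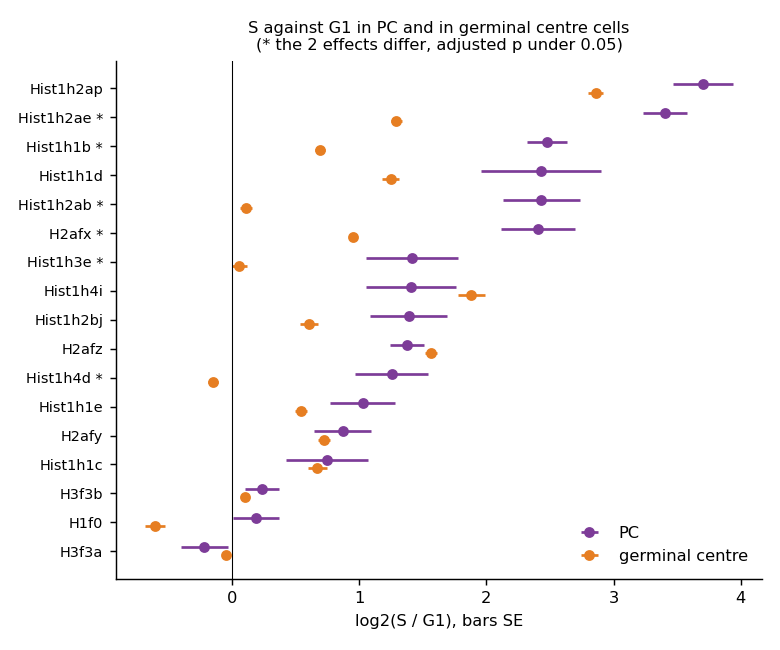
Log2 difference of S against G1 with its standard error for members, in PC (4 mice) above germinal centre cells (GC, 6 mice) for each gene. Hist1h2ab, Hist1h2ae and Hist1h1b stand further right in PC than in germinal centre cells.

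Cells named preMem, which carried memory markers at a summed 738 to 1043 CPM, against 26.6 to 111 CPM in LZ cells, were set against LZ cells within G1. Variants were lower in preMem, and some replication-dependent genes higher. Of 36 members tested, 8 were higher and 6 lower in preMem, against 10.6% higher and 9.4% lower of all 7220 genes tested: the 8 were all replication-dependent (of 29 tested, median log2 difference 0.31, against 0.01 over all genes) and the 6 were variants (of 7). The higher calls were the less stable: 0 were higher and 3 lower with cells thinned to 4727 UMIs, 1 higher and 6 lower without the filter on low counts, and 1 higher and 5 lower without day 22 mouse 1. The class summed to 2135, 2290.0 and 2853 CPM (lowest, median, highest of 6 mice) in preMem, against 1920.5, 2127 and 2363 CPM in LZ, which overlap, and variants to 4747, 5532 and 6303 CPM, against 6835, 7108 and 7199 CPM, which do not. The ratio was 0.433 ± 0.0511 in preMem, against 0.301 ± 0.0225 in LZ, higher in 6 of 6 mice.

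H1f0 fell by 1.71 on the log2 scale, with 6.56, 14.7 and 58.3 CPM in preMem, against 52.4, 72.0 and 85.0 CPM in LZ, lower in 6 of 6 mice with overlapping ranges. H1fx had 9.65, 11.1 and 26.9 CPM in preMem, against 18.2, 25.5 and 38.8 CPM in LZ (log2 difference −0.78 ± 0.26, lower in 5 of 6 mice). The H1fx call was lost with DESeq2's test (adjusted p = 0.119), with cells of their own well only (0.0713), with thinned cells (0.165) and without any one mouse other than day 16 mouse 2 (0.0659 to 0.174). H2afx had 180.1, 206 and 226 CPM in preMem, against 259.9, 287 and 324 CPM in LZ, H2afz had 434, 611 and 637 CPM, against 719.6, 817 and 867 CPM, and H3f3a had 2904, 3308 and 3815 CPM, against 3845, 4042 and 4288 CPM. In CPM all 3 were separated between the states. In the fit, which scales these sums alone, they fell by 0.38, 0.35 and 0.17 on the log2 scale, and H3f3b fell by 0.28. The separation was not examined on the scale of the fit. With thinned cells H2afx (adjusted p = 0.058, edgeR) and H3f3a (0.0501) did not pass.

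The rises of replication-dependent genes were small: Hist1h2ai (H2A) by 0.71, Hist1h1d by 0.55, Hist1h3f (H3) by 0.47, Hist1h4d by 0.38, Hist1h1e by 0.29 and Hist1h1b by 0.28 on the log2 scale. Hist1h1b had 424, 459 and 509 CPM in preMem, against 370.0, 412 and 481 CPM in LZ, higher in 5 of 6 mice. Without day 10 mouse 1, and likewise without day 10 mouse 2, 3 members were higher and 5 lower. Slbp fell by 0.49 and Hat1 by 0.63, among 4 regulators that fell and 1 that rose of 34 tested, and H2afj, outside the 71, rose by 0.54. S markers summed to 281 to 472 CPM in preMem, against 527 to 588 CPM in LZ, with 0 of 10 higher and 4 lower; their part in these differences was not tested. The median cell of preMem in G1 held 5382 UMIs, against 6573 in LZ.

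**Figure D5:**
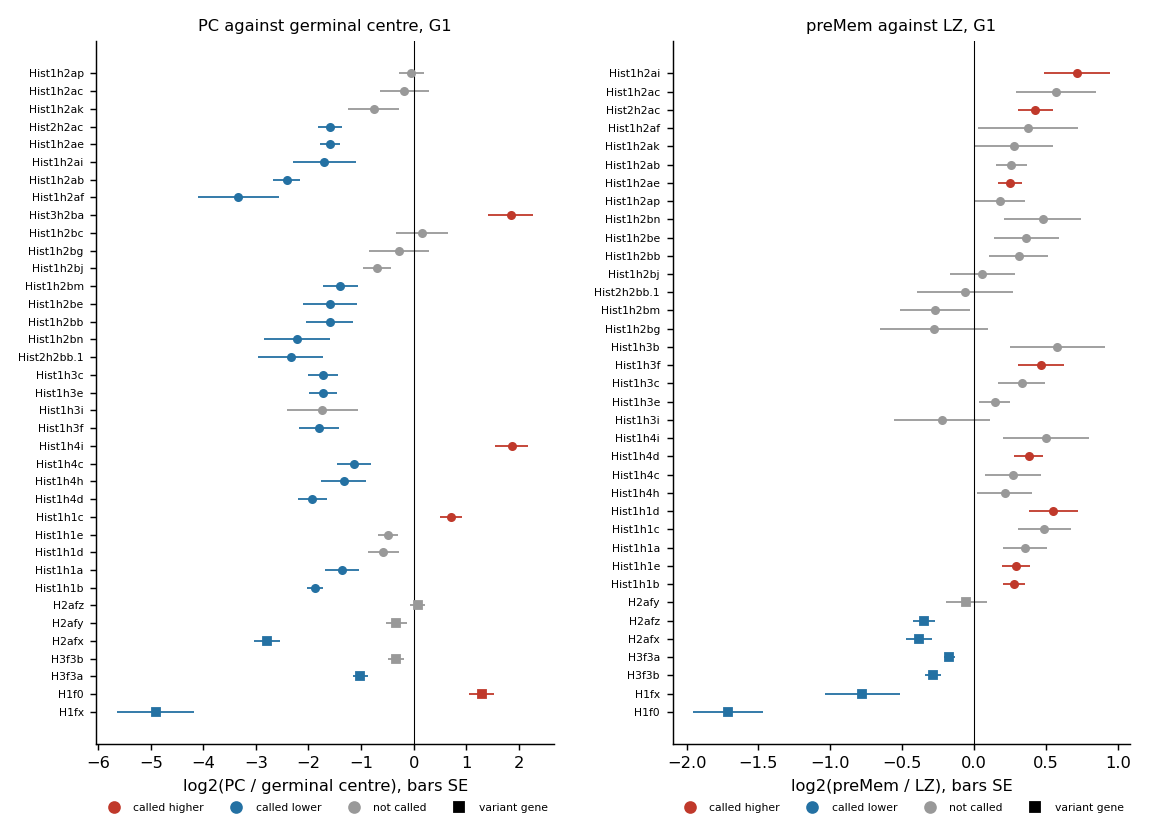
Log2 differences in G1 with standard errors for members tested, PC against germinal centre cells (left) and preMem against LZ cells (right); circles are replication-dependent genes and squares variants. On the left, most replication-dependent genes lie left of 0; on the right, the called replication-dependent genes lie right of 0 and the called variants left of it. Points with few PC UMIs (H1fx, Hist1h2af) are fitted values and no bounds.

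Days were compared in GC cells in S, with 2 mice a day and a spread shared over 3 days. Of 60 members tested, 1 (H1fx) was higher at day 22 than at day 10 and 0 were lower (13 had an unadjusted p under 0.05), against 0.371% higher and 0.647% lower of all 9434 genes tested. H1fx had 29.2 and 35.2 CPM at day 10, 47.4 and 38.0 CPM at day 16 and 59.4 and 54.3 CPM at day 22 (log2 difference 0.80 ± 0.15, adjusted p = 0.0384, edgeR). The call was lost when any one of the day 10 or day 22 mice was left out, with thinned cells and with DESeq2's test, while 4 members passed without the filter on low counts and 2 without immunoglobulin genes. The class sum was 3140.0, 3498, 3642, 3569, 3696 and 3406 CPM in the 6 mice, in order of day, and its ratio to variants 0.35, 0.374, 0.397, 0.377, 0.392 and 0.376, with day 10 mouse 1 the lowest in both. Among regulators 0 of 36 passed in either direction by edgeR, with 2 at an unadjusted p under 0.05.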

How the data were processed

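Counts of unique molecules per gene and cell were used as the authors deposited them: the submitters' processing notes name Cell Ranger, Seurat and the mm10 (GRCm38) build, with no versions, and the treatment of doublets and multi-mapping reads is not given in the sources used here. The authors also deposited each cell's mouse, well, state and phase. Counts were summed per mouse, state and phase (at least 10 cells, or 5 where PC entered); PC sums with fewer were left out. Each comparison was fitted over all genes with edgeR 4.0.16 (R 4.3.3; TMM scaling, filter on low counts, quasi-likelihood test, two-sided), with the mouse as a block because sums of one mouse come from the same animal, and p-values were adjusted over all genes tested at 0.05. Standard errors of the log2 differences of single genes are the size of the difference over the square root of the test's F value. They are not a spread over mice. DESeq2 1.42.0 was an alternative. The fits were tested on simulated counts. Count ratios have exact 95% intervals, which cover counting error only. Summed levels carry no test. The histone genes, the lists and the tests were chosen with earlier results of these data known. Values by mouse were given for the 4 core and 3 linker genes with the most UMIs and the 7 variants, with the 3 greatest called differences in each direction; other genes were named after their values were seen. B cell receptor and hashtag libraries were not used here.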

Additional observations from a re-analysis of the deposited data

Results flagged for a closer look

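In groups of 4 to 6 mice, 7 of 108 tests found 1 mouse far from the others, and chance gives about 1 in 20. In GC cells in G1, day 10 mouse 1 was low for Hist1h4d (181 CPM, next 222.5 CPM) and for H1f0 (51.36 CPM, next 74.18 CPM). In preMem cells in G1, day 22 mouse 2 was high for H1f0 (58.28 CPM, next 23.23 CPM) and low for H2afz (434.5 CPM, next 594.9 CPM), and day 16 mouse 2 was high for H1fx (26.89 CPM, next 13.52 CPM). In PC, day 16 mouse 2 was the one with H1fx above 0, at 3.373 CPM in S and 7.699 CPM in G1, each of them 1 UMI.

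The S against G1 difference was greater in PC than in GC cells, by a test of the difference itself (edgeR's interaction term), for 7 genes. On the log2 scale it differed by 2.3258 for Hist1h2ab, 2.1609 for Hist1h2ae, 1.9017 for Hist1h1b, 1.7213 for Hist1h3c, 1.6467 for H2afx, 1.4832 for Hist1h4d and 1.3899 for Hist1h3e. The PC values rest on 5 to 32 cells a mouse in S.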

How the results depend on the processing

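Of 1124 alternative values for 83 gene results, 1001 kept their direction and side of the threshold, 121 kept the direction but did not pass, and 2 turned: H3f3a in S against G1 was 0.0429 in LZ cells alone and 0.017 in DZ cells alone, both settings chosen after seeing the data. For DZ against LZ (4 members called of 46 tested), DESeq2's test, thinned cells (33 tested) and the fit without the replicate block for mouse gave 2 each. No filter on low counts (71 tested) and no immunoglobulin genes gave 8 each. With germinal centre cells of the PC well only, PC against GC cells gave 4 in S (12) and 2 in G1 (25), with fewer genes tested. For S against G1 in PC (13 of 17 members tested), no filter gave 23 of 65 and thinned cells 4 of 6. The difference between the steps (7) gave 1 with thinned cells. For preMem against LZ (14), no filter gave 7 (1 higher, 6 lower) and thinned cells 3 (0 higher, 3 lower), in place of 8 higher and 6 lower. For day 22 against day 10 (1), DESeq2's test and thinned cells gave 0, no filter 4 and no immunoglobulin genes 2. Thinning gave summed log2 differences in GC cells, S against G1, of 0.6504 for replication-dependent genes (0.7531) and 0.3129 for variants (0.3629), and −1.0456 for variants in PC against GC cells in S (−0.6618). It removed 662 of 6619 cells, and moved the median of all genes to −0.37 in PC against GC cells in S (−0.11 with full counts). The cause of these shifts was not tested.

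Leaving out 1 mouse gave 7 to 16 calls for PC against GC cells in S, 12 to 26 in G1, 8 to 14 for S against G1 in PC, 1 to 6 for the difference between the steps, 6 to 12 for preMem against LZ and 0 to 1 for the days. The lowest counts came without day 10 mouse 2 (PC against GC cells) or day 22 mouse 1 (the difference between the steps, preMem). In PC, 53 of 64 replication-dependent genes had too few counts to be tested between phases.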
